A study of Mus musculus with 17 samples.

Results

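Fn1, Tnc, Postn, Vcan, Lox, Loxl2, Thbs1, Spp1 and S100a4 were followed as a group of extracellular matrix and matricellular genes often named in work on the pre-metastatic niche, meaning changes in an organ that precede the arrival of tumor cells. They are 9 of the 18262 genes in the deposited table, taken by exact gene symbol, and all 9 were found. The study sequenced RNA from whole mouse lung and asked about lungs of tumor-bearing animals and their response to genetically engineered myeloid cells (GEMy) that carry interleukin-12. All animals were C57BL/6 mice, and each of 4 lung groups had 4 libraries. Naive untreated lungs came from mice with neither tumor nor cells. Naive treated lungs came from tumor-free mice given 8000000 IL12-GEMy cells by vein. Tumor untreated lungs came from mice injected in the gastrocnemius muscle with 500000 M3-9-M cells, a mouse rhabdomyosarcoma line marked with firefly luciferase and mCherry, and were taken on day 15. Tumor treated lungs came from such mice that received 8000000 IL12-GEMy cells on day 12, and lungs of treated mice were taken 3 days after the cells. 1 further library is the cell product itself, bone marrow cells grown with SCF, FLT3L and IL-6 and transduced with a lentiviral vector. The labels do not state whether each library is a separate mouse, so the tests speak only of variation among the libraries sequenced, which may be technical. Where single lungs are counted or compared below, a lung stands for 1 lung library. In the plots the groups are named naive_untreated, naive_GEMy, tumor_untreated and tumor_GEMy. Mouse ages were not given in the sources used here.

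The extracellular matrix is the protein mesh around cells, and matricellular proteins are secreted into it to change how cells attach and signal rather than to build it. Fibronectin, tenascin-C, periostin and versican form or modify the mesh, the lysyl oxidases cross-link collagen and elastin, and thrombospondin-1, osteopontin and S100A4 act on cells through surface receptors or from inside the cell. In lung, deposits of such proteins have been described at sites where myeloid cells gather ahead of metastasis, and several of the genes are made by fibroblasts, by myeloid cells or by both.

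Lung libraries held 27566839 to 36815046 reads assigned to genes, and the cell product held 31111311. Defining lung genes were high in all 16 lungs, with surfactant protein gene Sftpc at 8995 RPM or more. RPM is reads per 1000000 assigned reads, the deposited FPKM multiplied by the listed gene length. The myeloid identity of the product showed in Mpo at 1759 RPM and Itgam at 743 RPM, against Sftpc at 0.0964 RPM and the fibroblast genes Col3a1, Pdgfra and Dcn at 0. Platelet marker genes were present in the product as well, with Pf4 at 305, Ppbp at 388 and Itga2b at 243 RPM. The muscle regulators Myod1 and Myog had no entry under those symbols in the deposited table, so their levels are not known here. Chrna1, a muscle receptor subunit, was at most 0.387 RPM in any lung. Hemoglobin genes took 0.09996 to 1.51% of reads in naive lungs, 0.553 to 5.41% in tumor untreated lungs and 0.306 to 2.41% in tumor treated lungs, with the highest share in tumor untreated replicate 4. In whole tissue, fewer cells of a type and less RNA per cell cannot be told apart.

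All 9 genes were above 1 RPM in every lung library, so none was removed by the minimum on low values. Their positions on mm10 are chr1:71585473-71653234 for Fn1, chr4:63959785-64047015 for Tnc, chr3:54359267-54391041 for Postn, chr13:89655310-89742512 for Vcan, chr14:69609476-69695834 for Loxl2, chr2:118111876-118127133 for Thbs1, chr5:104435111-104441053 for Spp1 and chr3:90603770-90606045 for S100a4. Fn1, Tnc and Vcan lie on the minus strand and the other genes given here on the plus strand. Levels of different genes were compared per kilobase of annotated exon. On that scale naive untreated lungs had S100a4 highest at 52.9 RPM per kilobase, with every library above the next gene. Fn1 at 38.8, Postn at 36.5, Thbs1 at 36.4 and Spp1 at 35.6 RPM per kilobase followed and overlapped each other. Loxl2 and Lox were both at 9.92, Tnc was at 2.66 and Vcan was lowest at 0.596 RPM per kilobase. In tumor untreated lungs the level of S100a4 was 203, that of Spp1 90.0 and that of Thbs1 72.6 RPM per kilobase, all above Fn1 at 40.9 RPM per kilobase. The level of Vcan there was 3.00 RPM per kilobase, beside 2.68 for Tnc.

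Promoter sequence is shown for 3 genes that were higher in tumor-bearing lungs, to let their start regions be compared. RefSeq (GRCm38.p6) gave entries for 5 of the 9 genes, Tnc, Postn, Vcan, Spp1 and S100a4. Each line holds the 250 bases before the start listed in the deposited table, 5′ to 3′ on the gene's own strand, and capitals mark motif matches. The intervals are chr3:90603520-90603769 (plus) for S100a4, chr13:89742513-89742762 (minus) for Vcan and chr5:104434861-104435110 (plus) for Spp1. Postn is not shown, since its listed start, 54359267, and its GENCODE M21 start, 54361109, differ.
S100a4: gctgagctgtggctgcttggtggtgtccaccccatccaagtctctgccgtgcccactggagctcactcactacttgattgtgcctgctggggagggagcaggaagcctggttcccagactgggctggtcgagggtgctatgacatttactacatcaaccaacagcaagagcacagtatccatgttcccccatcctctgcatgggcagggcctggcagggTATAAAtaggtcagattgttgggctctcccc
Vcan: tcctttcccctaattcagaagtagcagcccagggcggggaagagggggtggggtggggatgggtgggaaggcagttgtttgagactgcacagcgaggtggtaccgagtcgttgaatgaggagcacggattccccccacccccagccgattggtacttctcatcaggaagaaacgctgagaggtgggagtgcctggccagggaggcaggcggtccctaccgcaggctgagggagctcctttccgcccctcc
Spp1: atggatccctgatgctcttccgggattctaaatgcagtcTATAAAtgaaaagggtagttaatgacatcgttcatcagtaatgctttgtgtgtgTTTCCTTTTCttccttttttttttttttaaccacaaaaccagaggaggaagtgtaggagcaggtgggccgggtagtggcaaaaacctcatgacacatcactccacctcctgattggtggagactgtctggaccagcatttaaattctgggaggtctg

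The search covered both strands for a TATA box (TATAAA), an AP-1 motif (TGANTCA), a STAT motif known as GAS (TTCNNNGAA), an interferon motif known as ISRE (GAAA, any 2 bases, then GAAA again) and a cyclic AMP motif (TGACGTCA). S100a4 held a TATA box 31 to 26 bases before its start. Spp1 held a TATA box 211 to 206 bases before its start and an ISRE match 157 to 148 bases before it, read on the minus strand. Tnc held a TATA box 126 to 121 bases before its start, and Vcan held no match in this window. Of 32851 RefSeq promoters of this length, 12.4% held the TATA box, 6.75% the AP-1 motif, 7.02% the GAS motif, 2.98% the ISRE motif and 1.55% the cyclic AMP motif. A match is a description of letters, and binding was not measured.

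Tumor untreated against naive untreated lungs shows what accompanied a distant leg tumor. Vcan, S100a4, Spp1 and Thbs1 rose, by 4.66, 3.65, 2.39 and 2.01 times on the log2(RPM + 0.5) scale. Postn and Loxl2 fell, to 0.848 and 0.753 of the naive level, and Fn1, Tnc and Lox did not pass the test. So 4 of 9 genes rose and 2 fell at an adjusted p under 0.05. Over all 14685 genes tested, 15.2% were called higher and 27.0% lower, so a fall was the commoner call in the table. The same 6 genes did not overlap between the groups, 4 higher and 2 lower, as did 12.4% and 24.1% of all genes. After median-of-ratios scaling the split over all genes was 3061 higher and 2504 lower, against 2239 and 3971 by RPM. The median log2 difference of the 9 genes was 0.23, beside -0.09 over all genes.

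Vcan encodes versican, a large proteoglycan that binds hyaluronan and is made by activated fibroblasts and by monocytes. Naive untreated replicates 1 to 4 had 8.73, 7.47, 9.14 and 9.12 RPM, and tumor untreated replicates had 33.5, 31.4, 50.4 and 58.0 RPM. Every tumor-bearing lung was thus above every naive lung, and the groups were far apart. The log2 difference was 2.22 ± 0.19 (SE, n = 4 per group), with an adjusted p of 1.699e-07 from limma. Its deposited FPKM is low, 0.0988 on average in naive untreated lungs, since the length used includes the introns of a long gene. For that reason Vcan and Tnc did not reach 0.5 FPKM in at least 4 lungs, the minimum of an FPKM fit, and they were tested as RPM.

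S100a4 encodes a small calcium-binding protein of motile fibroblasts and myeloid cells, also known as fibroblast-specific protein 1. It was at 26.6, 31.4, 35.3 and 30.3 RPM in naive untreated lungs and at 66.1, 129.7, 135 and 143 RPM in tumor untreated lungs. Replicate 1 of the tumor untreated group was well below the other 3, and still above all naive untreated lungs. The log2 difference was 1.87 ± 0.19 (SE, n = 4 per group), with an adjusted p of 1.815e-06.

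Spp1 encodes osteopontin, a secreted phosphoprotein that binds integrins and CD44 and is made by macrophages. Naive untreated lungs had 66.0, 58.0, 56.7 and 54.0 RPM, and tumor untreated lungs had 147, 95.4, 120.2 and 231 RPM. The groups did not overlap, and the tumor-bearing lungs varied widely among themselves. The log2 difference was 1.26 ± 0.26 (SE, n = 4 per group), with an adjusted p of 0.001432.

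Thbs1 encodes thrombospondin-1, a platelet and stromal protein that limits angiogenesis and activates latent TGF-beta. Its level was 189, 184, 216 and 295 RPM in naive untreated lungs and 425, 490.2, 354 and 494 RPM in tumor untreated lungs. All 4 tumor-bearing lungs were higher than the highest naive lung. The log2 difference was 1.01 ± 0.15 (SE, n = 4 per group), with an adjusted p of 8.291e-05. Tumor untreated replicate 4 was the highest of the 16 lungs for Vcan, S100a4, Spp1 and Thbs1, and it also had the largest hemoglobin share. These 4 rises kept their calls in each fit that leaves out 1 library and in each other alternative in which the gene was fitted.

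**Figure D1:**
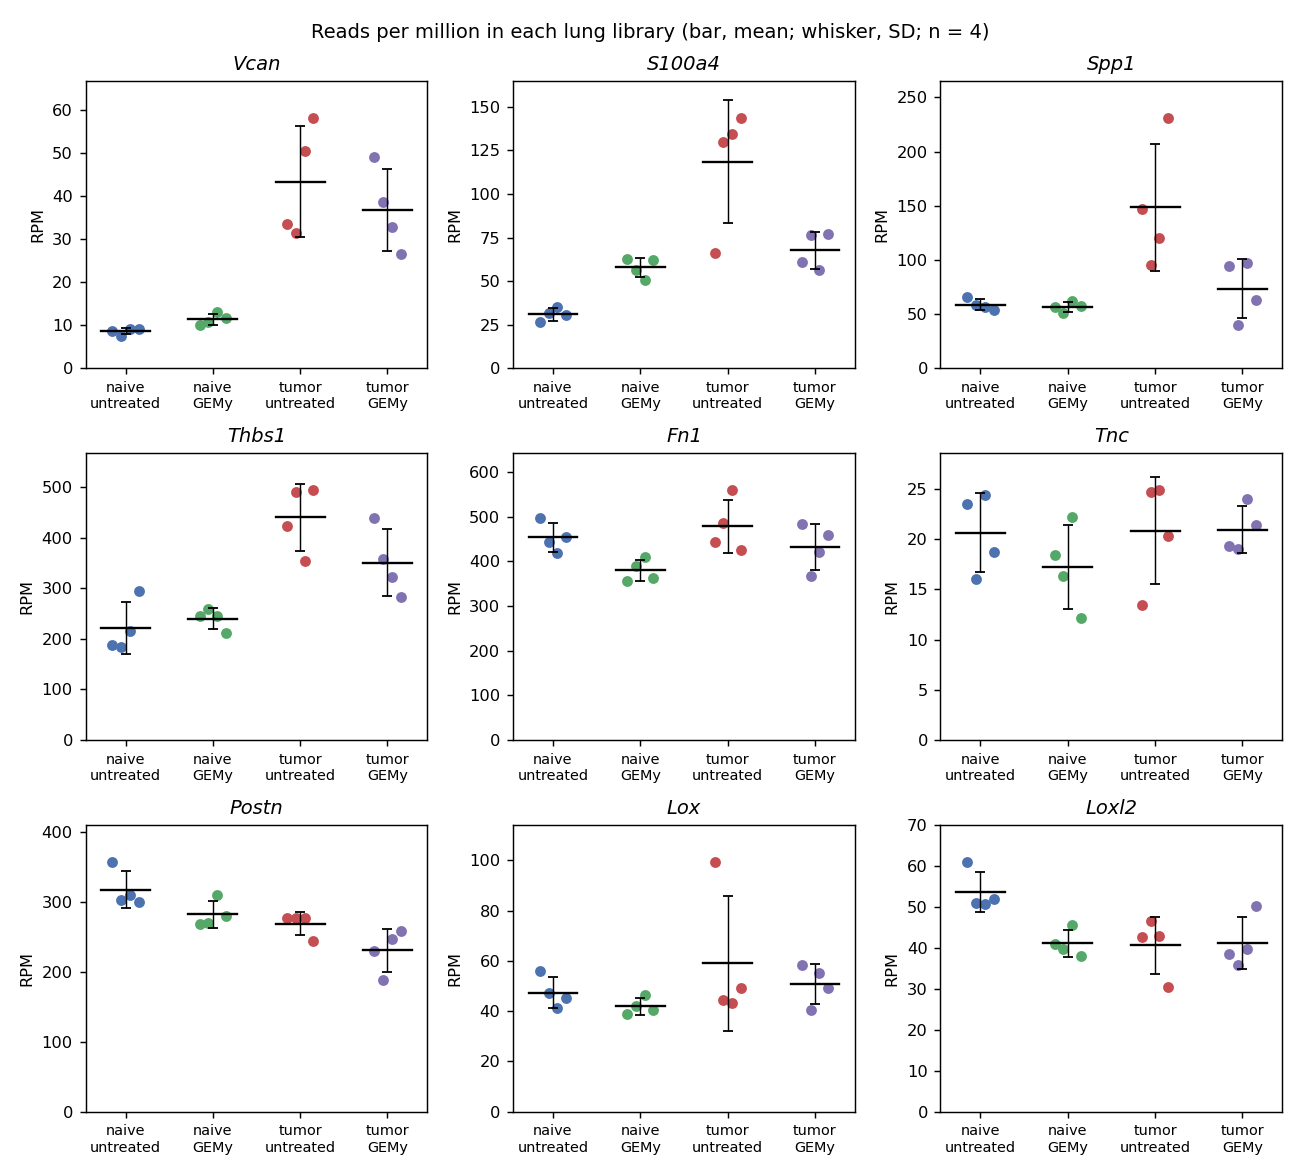
Reads per 1000000 assigned reads (RPM, vertical axis starting at 0) of the 9 genes in the 16 lung libraries, 1 panel per gene, with 1 point per library and the group mean and SD. For Vcan, S100a4, Spp1 and Thbs1 all tumor untreated points lie above all naive untreated points, while Fn1, Tnc and Lox overlap.

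Postn encodes periostin, a fibroblast protein that binds collagen and tenascin. It was at 357, 303, 310.1 and 299.9 RPM in naive untreated lungs and at 277, 277, 277 and 244 RPM in tumor untreated lungs. The groups did not overlap, but the gap between them was small. Postn fell by 0.24 on the log2 scale, with an SE of 0.09 and an adjusted p of 0.04754. With median-of-ratios scaling the difference was -0.15 (adjusted p = 0.1745), and it was -0.15 with hemoglobin as a covariate (0.2479). The call was also lost with no minimum, plain moderation or array weights (0.0561 to 0.0577). Leaving out any 1 of the 8 libraries other than tumor untreated replicate 1 lost it too, at adjusted p-values of 0.0537 to 0.1535.

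Loxl2 encodes a lysyl oxidase-like enzyme that cross-links collagen IV and other matrix proteins. Naive untreated lungs had 60.9, 50.9, 50.6 and 52.0 RPM, against 42.7, 46.4, 42.9 and 30.5 RPM in tumor untreated lungs. Every tumor-bearing lung was below every naive lung. Loxl2 fell by 0.41 on the log2 scale, with an SE of 0.12 and an adjusted p of 0.01246, and by 0.21 on the log2(FPKM + 0.5) scale. The call was lost with the hemoglobin share as a covariate, at an adjusted p of 0.09007.

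Fn1, which encodes fibronectin, had 497, 444, 419 and 454 RPM in naive untreated lungs and 442, 486, 559 and 425 RPM in tumor untreated lungs. The ranges overlapped, with a log2 difference of 0.07 and a 95% interval of -0.13 to 0.27. Tnc, which encodes tenascin-C, averaged 20.7 ± 3.94 RPM and 20.9 ± 5.36 RPM (SD, n = 4 each), with an interval of -0.42 to 0.40. Lox, which encodes lysyl oxidase, an enzyme that starts collagen and elastin cross-linking, had 56.0, 47.2, 41.2 and 45.1 RPM in naive untreated lungs. Tumor untreated lungs had 99.4, 44.4, 43.3 and 49.3 RPM of Lox, so replicate 1 stood far above the other 3, which lay within the naive range. The log2 difference of Lox was 0.23 ± 0.20 (SE), with an adjusted p of 0.3696 and an interval of -0.20 to 0.66.

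The other genes of these pathways were read from lists chosen with earlier results of these data known. Of 18 tested matricellular genes outside the 9, 1 rose and 11 fell, with a median log2 difference of -0.42. Tgfbi, a TGF-beta-induced matrix protein, was the riser at 1.64 (adjusted p = 5.377e-08), from 128 ± 6.50 to 406 ± 72.8 RPM. Ccn4, a secreted WNT1-inducible protein, was among those that fell, by 0.95 (adjusted p = 0.007674). Of 13 cross-linking and hydroxylation enzymes, 1 rose and 3 fell, among them Loxl1, which fell by 0.57 (adjusted p = 0.009192), and the collagen processing helper Pcolce, which fell by 0.50 (adjusted p = 0.0006743). The median of these enzymes was -0.12 on the log2 scale, beside -0.09 over all genes. Over all genes 15.2% were called higher and 27.0% lower, and the enzyme counts were not above those shares.

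Of 19 receptors of fibronectin and matricellular proteins, 5 rose and 8 fell. Itga4, the alpha chain of the fibronectin and osteopontin receptor VLA-4 of leukocytes, rose by 1.20 on the log2 scale (adjusted p = 0.0006967), and Tlr2, an innate receptor for which versican is a reported ligand, by 1.21 (adjusted p = 6.233e-06). Of 12 hyaluronan and versican partners, 4 rose and 2 fell. Tnfaip6, which modifies hyaluronan during inflammation, rose by 1.09 (adjusted p = 1.598e-05) and the hyaluronan receptor Hmmr by 1.16 (adjusted p = 0.0001886). Tnfaip6 averaged 0.605 RPM in naive untreated and 1.83 RPM in tumor untreated lungs, near the added 0.5 RPM. It passed the minimum of 1 RPM through groups other than naive untreated, so its rise carries little weight. Of 22 TGF-beta axis genes, 5 rose and 10 fell, with Nrros, a holder of latent TGF-beta on myeloid cells, at 1.18 (adjusted p = 4.509e-05). Of 10 other S100 genes, 3 rose and 5 fell, with S100a6 at 0.53 (adjusted p = 0.001189) and S100a14 at -0.66 (adjusted p = 0.00138). The medians of these 4 lists were -0.02, -0.06, -0.19 and -0.26, beside -0.09 over all genes, of which 15.2% were called higher and 27.0% lower.

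Markers of cell types that express these genes moved in the same comparison. Of 15 monocyte and macrophage markers 14 rose, among them Fcgr4 by 2.98 (adjusted p = 1.721e-09) and Ly6c2 by 2.31 (adjusted p = 5.806e-07). Their summed level was 6068 to 6708 RPM in naive untreated and 6335 to 7549 RPM in tumor untreated lungs, which overlap. Most of that sum was Lyz2, a lysozyme gene that lung epithelium also expresses, at 5451 to 6090 RPM and 5233 to 5798 RPM. Without Lyz2 the sum was 532 to 618 RPM and 1102 to 2093 RPM, a sum made after the values were seen. Of 12 neutrophil markers 10 rose and 0 fell, among them Ly6g by 4.76 (adjusted p = 2.593e-08) and S100a8 by 4.56 (adjusted p = 5.374e-08), with sums of 367 to 515 RPM and 3332 to 5590 RPM. Ly6g averaged 0.423 RPM in naive untreated and 24.8 RPM in tumor untreated lungs. It passed the minimum of 1 RPM through groups other than naive untreated, and its log2 value depends on the added 0.5 RPM. Of 15 fibroblast and smooth muscle markers 0 rose and 9 fell, with sums of 3498 to 4389 RPM and 2199 to 3014 RPM and a median log2 difference of -0.40. Mfap4 fell by 0.83 (adjusted p = 0.0009024) and Pdgfrb by 0.62 (adjusted p = 9.041e-05). Markers of other resident cells were lower too by RPM, and 0 of them rose. They were 6 of 7 mesothelial markers, with a median of -0.50, and 7 of 10 lung epithelial and endothelial markers, with a median of -0.36. Over all genes 15.2% were called higher and 27.0% lower by RPM. After median-of-ratios scaling 3061 genes were higher and 2504 lower, and the lists were not refitted with that scaling. Among the other lists, 0 of 9 alveolar macrophage markers rose and 1 fell, 2 of 8 lymphocyte markers rose and 3 fell, 0 of 7 hemoglobin genes were called by limma, and the 1 muscle gene tested fell. Of 10 platelet markers 0 were called by limma, with sums of 101 to 193 RPM and 107 to 278 RPM. None of these markers was at 0 throughout a lung group. Of 13 immediate early genes 8 rose and 2 fell, with sums of 953 to 1329 RPM and 1418 to 1531 RPM. Of 15 hypoxia response genes 7 rose and 0 fell, but their sums overlapped, at 1381 to 1530 RPM and 1239 to 1450 RPM. The part of these cell types and responses in the levels of the 9 genes was not tested.

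**Figure D2:**
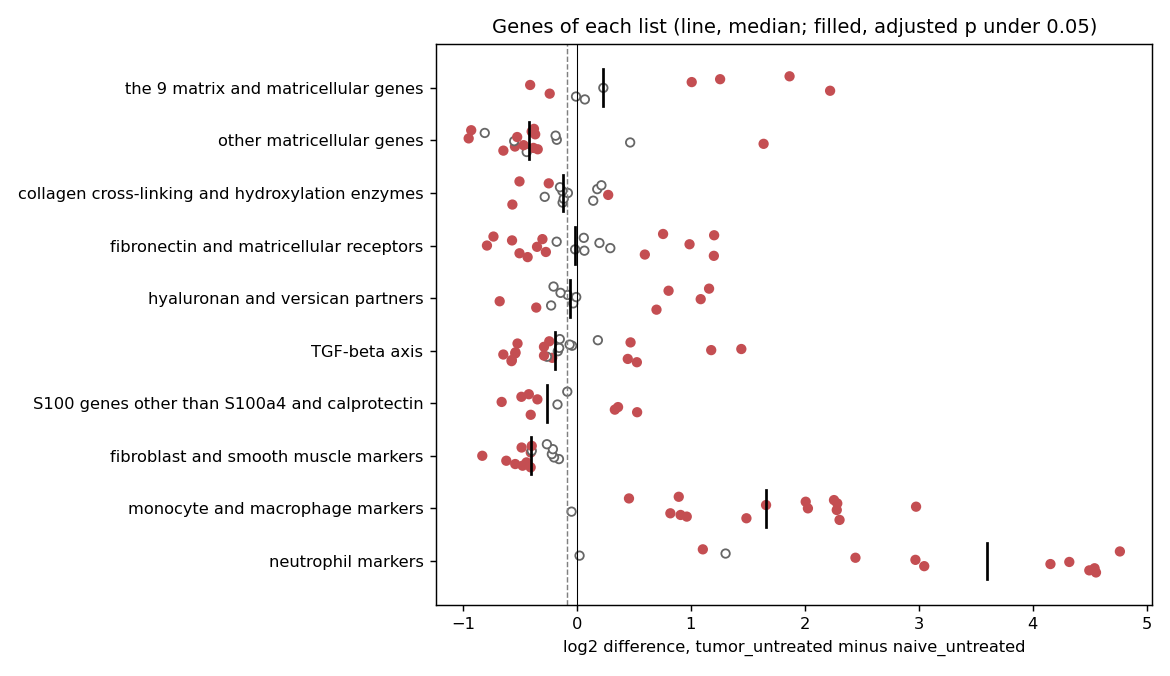
Log2 differences, tumor untreated minus naive untreated lungs (horizontal axis), of the tested genes of each list, with 1 point per gene, filled where called, a bar at the list median and a dashed line at the median of all genes. Monocyte and neutrophil markers have medians of 1.66 and 3.60, and fibroblast and smooth muscle markers a median of -0.40.

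Tumor treated against tumor untreated lungs shows how the 9 genes stood 3 days after the cells were given. Spp1 and S100a4 fell, to 0.493 and 0.593 of the untreated tumor level, and 0 of 9 genes rose. Vcan, Thbs1, Fn1, Tnc, Postn, Lox and Loxl2 did not pass the test. Over all genes 2.89% were called lower and 2.50% higher. In the tumor groups the labels carry a number that is 1 for untreated and 2 for treated animals, and what it marks cannot be told apart from the treatment. Beside it each tumor library carries a letter code, such as NC or BL, that differs within a group, and its meaning is not stated.

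Spp1 was at 94.1, 39.6, 97.1 and 62.7 RPM in tumor treated lungs, against 147, 95.4, 120.2 and 231 RPM without cells. Tumor treated replicate 3 was above the lowest untreated lung, so the groups overlapped. Spp1 fell by 1.02 on the log2 scale, with an SE of 0.26 (n = 4 per group) and an adjusted p of 0.02947. S100a4 was at 61.1, 76.3, 56.3 and 77.1 RPM after treatment, and 3 of 4 untreated lungs were at 129.7 RPM or above while replicate 1 lay inside the treated range. S100a4 fell by 0.75, with an SE of 0.19 and an adjusted p of 0.02737. Both calls rest on the spread of all 4 groups. When the fit held just these 2 groups, the adjusted p was 0.2102 for Spp1 and 0.1735 for S100a4. They are also lost without single libraries, Spp1 without tumor untreated replicate 1 (adjusted p = 0.0559) or 4 (0.0693) or tumor treated replicate 2 (0.0848) or 4 (0.0746), and S100a4 without tumor untreated replicate 2 (0.0840), 3 (0.0813) or 4 (0.0720) or tumor treated replicate 1 (0.0699) or 3 (0.0828).

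Vcan was at 49.1, 38.5, 32.9 and 26.5 RPM in tumor treated lungs, inside or near the untreated tumor range of 31.4 to 58.0 RPM. Its log2 difference was -0.22, with a 95% interval of -0.62 to 0.17 and an adjusted p of 0.5905. Thbs1 was at 439, 358, 323 and 283 RPM, with a difference of -0.34 ± 0.15 (SE, adjusted p = 0.245). Tumor treated replicate 1 was highest of its group for both genes, and it also had the largest neutrophil sum of that group, 5730 RPM against 1840 to 2284 RPM in the other 3. Its platelet sum was the largest as well, 356 RPM against 79.9 to 178 RPM. Replicate 4, with the next neutrophil sum of 2284 RPM, was lowest of the group for both genes. Any link of these sums to Vcan or Thbs1 was not tested. Postn differed by -0.23 (adjusted p = 0.185), Fn1 by -0.14 (adjusted p = 0.473) and Lox by -0.13 (adjusted p = 0.7961). Loxl2 and Tnc differed by 0.02 and 0.04, with intervals of -0.23 to 0.28 and -0.37 to 0.45.

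Among the listed genes, Tgfbi fell by 0.58 (adjusted p = 0.01122), as 1 of 18 other matricellular genes, and none of them rose. Of 22 TGF-beta axis genes 2 fell and 0 rose, among them Tgfb1, the cytokine itself, by 0.38 (adjusted p = 0.03094). Bcan, the proteoglycan brevican, rose by 0.40 (adjusted p = 0.0433), as 1 of 12 hyaluronan and versican partners. Among receptors, cross-linking enzymes, other S100 genes and fibroblast markers 0 were called by limma. Monocyte and macrophage markers had 2 of 15 lower and 0 higher, with a median of -0.31. Those lower were Csf1r by 0.60 (adjusted p = 0.02664) and F13a1 by 0.56 (adjusted p = 0.02855). Ly6c2, not called, was at 147 to 214 RPM, against 67.8 to 148 RPM in tumor untreated lungs. The sum of the 15 markers was 6685 to 7209 RPM, or 1172 to 1635 RPM without Lyz2. Of 9 alveolar macrophage markers 1 rose and 0 fell. Of 12 neutrophil markers 2 fell, Csf3r by 1.07 (adjusted p = 0.002775) and Cxcr2 by 0.97 (adjusted p = 0.02746), and of 13 immediate early genes 5 fell, with Nr4a1 falling by 1.63 (adjusted p = 0.0007935). Their part in the fall of Spp1 and S100a4 was not tested.

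Naive treated against naive untreated lungs shows the same cells in mice without a tumor. S100a4 rose to 1.86 times its naive level, and the other 8 genes did not pass the test. It was at 62.5, 56.5, 50.8 and 62.0 RPM after treatment, against 26.6 to 35.3 RPM without, so the groups did not overlap. The log2 difference was 0.90 ± 0.19 (SE, n = 4 per group), with an adjusted p of 0.006793. Over all genes 5.31% were called higher and 1.64% lower.

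Vcan was at 10.0, 10.7, 12.9 and 11.6 RPM, all above the naive untreated lungs, with a log2 difference of 0.37 ± 0.19 (SE) and an adjusted p of 0.2813. Fn1 was at 357, 389.8, 409 and 363 RPM, all below the naive untreated lungs, with a difference of -0.26 (adjusted p = 0.1375). Loxl2 was at 40.8, 39.7, 45.6 and 38.1 RPM, also below every untreated lung, with a difference of -0.38 (adjusted p = 0.06924). So 2 genes lay wholly above and 2 wholly below the untreated group, beside 8.92% and 8.88% of all genes tested. When the fit held just these 2 groups, Vcan (adjusted p = 0.0293), Fn1 (0.0356) and Loxl2 (0.0067) were called as well. Spp1 differed by -0.05, with an interval of -0.60 to 0.50, and Thbs1 by 0.14, with an interval of -0.18 to 0.46.

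Of the 15 monocyte and macrophage markers 10 rose and 0 fell, with a median of 0.74. Their sum was 7044 to 7756 RPM, against 6068 to 6708 RPM in naive untreated lungs, and without Lyz2 it was 981 to 1332 RPM, against 532 to 618 RPM. The largest rise of these was in Ly6c2, a marker of inflammatory monocytes, at 2.44 (adjusted p = 7.021e-07). Of 12 neutrophil markers 0 were called by limma, and the sum was 333 to 525 RPM. Tgfbi rose by 0.45 (adjusted p = 0.04265), the only 1 called of 18 other matricellular genes. The crosslinking transglutaminase Tgm2 rose by 0.33 (adjusted p = 0.02356), the only 1 called of 13 cross-linking and hydroxylation enzymes. The receptor Cd36 fell by 0.34 (adjusted p = 0.04428), the only 1 called of 19 receptors. Over all genes 5.31% were called higher and 1.64% lower. The part of monocytes or of the injected cells in the rise of S100a4 was not tested.

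The interaction asks whether the change with cells differed between tumor-bearing and naive mice. It was called for S100a4 alone of the 9 genes, at -1.65 ± 0.27 (SE, adjusted p = 0.002349), beside 4.15% of all genes called negative and 1.11% positive. S100a4 was higher with cells in naive mice and lower with cells in tumor-bearing mice, and the means of the 2 treated groups were 58.0 ± 5.46 and 67.7 ± 10.6 RPM (SD, n = 4 each). The interaction of Spp1 was -0.97 (adjusted p = 0.1537), of Vcan -0.59 (adjusted p = 0.2337), of Thbs1 -0.48 (adjusted p = 0.2365) and of Loxl2 0.40 (adjusted p = 0.208). It was 0.11 for Fn1, 0.31 for Tnc, -0.06 for Postn and 0.03 for Lox, none of them called. Of the 15 monocyte and macrophage markers 12 had a negative interaction that passed the test.

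**Figure D3:**
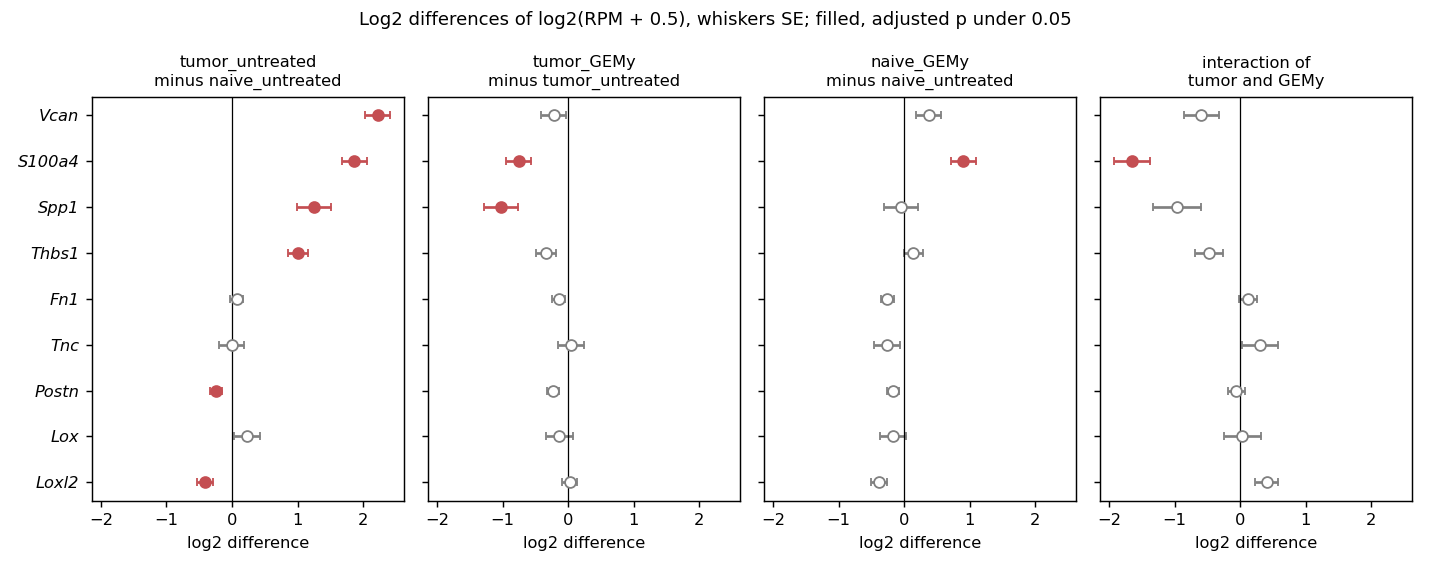
Differences of log2(RPM + 0.5) for the 9 genes (horizontal axis), with SE whiskers, in 3 comparisons of lung groups and the interaction, with filled points for genes called at an adjusted p under 0.05. S100a4 is at 0.90 with cells in naive mice and at -0.75 with cells in tumor-bearing mice, and Vcan is at 2.22 in tumor untreated against naive untreated lungs.

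Tumor treated lungs were also set against both naive groups. Against naive treated lungs, Vcan was higher by 1.63 ± 0.19 (SE, adjusted p = 4.277e-05) and Thbs1 by 0.53 ± 0.15 (SE, adjusted p = 0.03372), while Postn fell by 0.30 (adjusted p = 0.04707). Over all genes 3.96% were called higher and 7.02% lower, with 581 and 1031 genes by RPM and 823 and 480 after median-of-ratios scaling. The Thbs1 call was lost with quantile normalization (adjusted p = 0.05376), with hemoglobin as a covariate (0.2521) and without any 1 naive treated library or tumor treated replicate 1 or 2, up to 0.1051. The Postn call was lost without the same libraries, at adjusted p-values of 0.0724 to 0.143, and under 5 other alternatives, at 0.0553 to 0.4998. S100a4 and Spp1 differed by 0.21 and 0.29, with intervals of -0.19 to 0.62 and -0.26 to 0.84. Fn1 differed by 0.18, Tnc by 0.30, Lox by 0.27 and Loxl2 by -0.0075, none of them called.

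Against naive untreated lungs, Vcan was higher by 2.00 (adjusted p = 5.51e-07), S100a4 by 1.11 (adjusted p = 0.0003182) and Thbs1 by 0.67 (adjusted p = 0.002654). Vcan and S100a4 were wholly above and Postn and Loxl2 wholly below the naive untreated lungs, as were 12.5% and 26.2% of all genes, and Thbs1 overlapped. Postn fell by 0.47 (adjusted p = 0.0009833) and Loxl2 by 0.39 (adjusted p = 0.01868). Over all genes 12.9% were called higher and 25.1% lower, with 1900 and 3689 genes by RPM and 2596 and 1933 after median-of-ratios scaling, which moved the median of all genes from -0.106 to -0.006. The Loxl2 call was lost after that scaling (adjusted p = 0.05495) and without naive untreated replicate 1 (0.06484) or tumor treated replicate 2 (0.06286). Spp1 differed by 0.24, with an interval of -0.31 to 0.79, and Fn1, Tnc and Lox by -0.07, 0.03 and 0.10. This comparison shares the naive untreated lungs with 2 of the others, so the values are set side by side and not counted as repeats.

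Across the 16 lungs the 9 genes varied by very different amounts. The highest library was 7.77 times the lowest for Vcan, 5.83 times for Spp1, 5.39 times for S100a4 and 2.69 times for Thbs1. It was 2.56 times for Lox, 2.05 for Tnc, 2.00 for Loxl2, 1.90 for Postn and 1.57 for Fn1. The genes nearest in profile were searched among 14062 genes by the root mean square difference of centred log2 values over the 16 lungs. S100a4, with a spread of 0.715 about its own mean, was nearest to Fcer1g (0.139), the signalling chain of Fc receptors in myeloid cells, then Gpr35 (0.150) and Cd300a (0.159). Vcan, with a spread of 1.01, was nearest to Mxd1 (0.266), Ifitm1 (0.267) and the formyl peptide receptor gene Fpr2 (0.272). Postn, with a spread of 0.204, was nearest to Trpc6 (0.0698), Gucy1b1 (0.0799) and Pid1 (0.0878). Thbs1 was nearest to Cdkn2d (0.180), Maff (0.183) and Plk3 (0.188), Spp1 to Ctla2b (0.322), Il1rap (0.327) and Rab44 (0.333), and Loxl2 to Fam57a (0.109), Adgrg6 (0.110) and Pam (0.113). These distances describe the same 16 libraries that gave the tests.

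The injected cell product was 1 library, so its values have counting intervals only and no test against the lungs. Spp1 was at 1728 RPM (95% exact Poisson interval 1713 to 1742), rank 29 of 18262 genes by RPM. Vcan was at 601 RPM (592 to 610), rank 179, and S100a4 at 373 RPM (366 to 379.8), rank 406. Against the naive untreated mean these were 29.4 times (28.8 to 30.3), 69.8 times (65.5 to 74.5) and 12.1 times (11.6 to 12.5) as high. Lox was at 109 RPM, 2.29 times the naive untreated mean (2.20 to 2.40). Thbs1 was at 89.4 RPM, 0.405 of that mean (0.388 to 0.419). The product therefore held more Spp1, Vcan, S100a4 and Lox RNA per assigned read than lung did.

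The remaining genes were nearly lacking in the product. Fn1 had 96 reads, 3.09 RPM against 453 RPM in naive untreated lungs. Loxl2 had 4 reads, 0.129 RPM against 53.6 RPM. Tnc had 1 read, a ratio to the naive untreated mean of 0.00155 with a counting interval of 3.9e-05 to 0.0087. Postn had 0 reads, so the naive untreated mean was at least 3291-fold higher and the tumor treated mean, the lowest of the 4 groups, at least 2390-fold higher, taking 3 reads in that library as the floor. The fibroblast and smooth muscle markers summed to 13.9 RPM in the product, with 8 of 15 at 0, beside 5526 RPM for the 14 monocyte and macrophage markers without Lyz2. Intervals and floors cover counting error only. Of the 3 genes most above lung in the product, S100a4 rose in naive lungs given the cells. Vcan was at 11.3 ± 1.25 RPM there, against 8.61 ± 0.789 RPM without, wholly above but not called when all 4 groups were fitted. Spp1 was at 56.6 ± 4.60 RPM, against 58.7 ± 5.17 RPM without (SD, n = 4 each). Lox, also above lung in the product, was at 42.0 ± 3.35 RPM, against 47.4 ± 6.26 RPM without. The part of the injected cells in these lung levels was not tested.

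**Figure D4:**
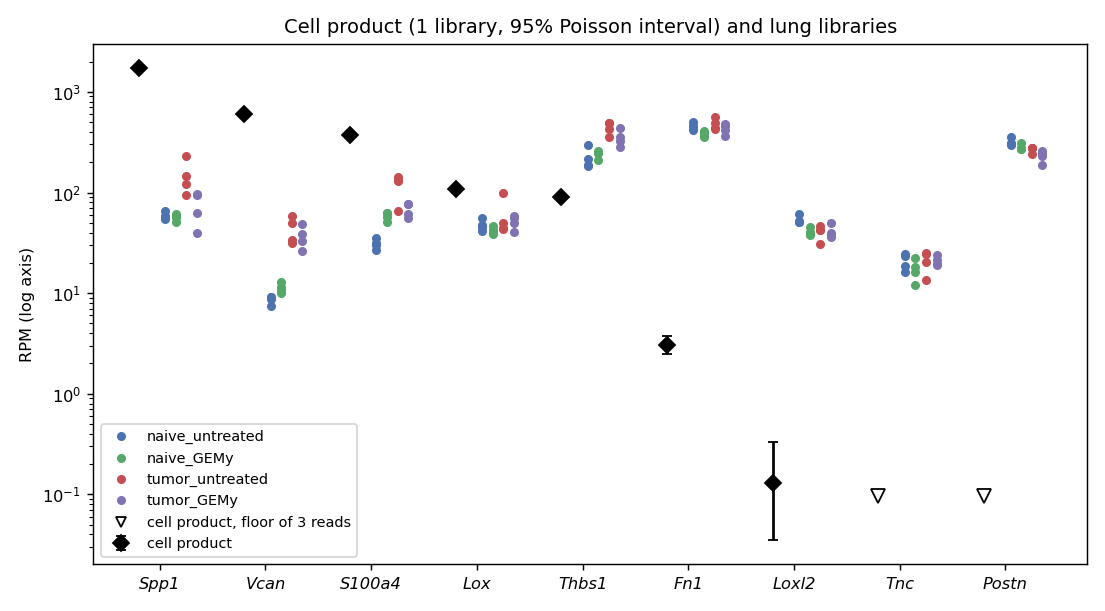
RPM (log axis) of the 9 genes in the cell product (diamonds, 95% Poisson interval) and in each library of the 4 lung groups (points), to be compared within a gene. Spp1, Vcan, S100a4 and Lox are higher in the product than in every lung, Thbs1, Fn1 and Loxl2 are lower, and Tnc with 1 read and Postn with 0 reads are drawn as triangles at the floor of 3 reads.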

How the data were processed

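The series holds 16 lung libraries and 1 cell product library. Per the labels' protocols, lungs were flash frozen and RNA was extracted with TRIzol, and STAR 2.7.3a, Partek and build mm10 are listed in the submitters' processing notes. The annotation, settings and any use of strand in counting are not given in the sources used here. The deposited table gives FPKM of 18262 genes. FPKM times the listed genomic span in kilobases summed to 1000000 in every column, so that product is RPM. The smallest steps gave the read number of each library, with 86.6 to 88.5% of values below 1000 reads falling within 0.02 of a whole read.

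Lungs were analysed as log2(RPM + 0.5) for 14685 genes with at least 1 RPM in at least 4 lungs. limma 3.58.1 in R 4.3.3 fitted 4 group means over 16 lungs with trend and robust moderation, 2-sided, with Benjamini-Hochberg adjustment over all genes in each of 6 comparisons at a threshold of 0.05. Fold changes include the added 0.5. No 2 libraries held the same values. The text gives the 9 genes, the 3 nearest profiles of each called one and, from the lists it describes, examples among the 2 most changed called genes, while other lists are given as counts. Values of 1 list gene are not reported here. The members, the 18 gene lists and the tests were chosen with earlier results of these data known. The fit was tested on simulated data. Exon lengths are of GENCODE M21, promoters of RefSeq. Alternatives were other pseudocounts, minimums, scalings and moderation, the FPKM scale, only the compared groups, a replicate block, array weights, recovered reads with voom, hemoglobin as a covariate and leaving out each library.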

Additional observations from a re-analysis of the deposited data

Results flagged for a closer look

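Groups of 4 libraries were searched for a highest or lowest library standing apart from the other 3, which chance gives in about 1 in 20 groups, and 36 groups were examined. Lox in tumor untreated lungs had replicate 1 apart, at 99.4 RPM. Postn in tumor untreated lungs had replicate 4 apart, at 243.7 RPM, below the other 3 at 277 RPM. Loxl2 in naive untreated lungs had replicate 1 apart, at 60.9 RPM, above the other 3 at 50.6 to 52.0 RPM.

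The change of S100a4 with the cells differed between tumor-bearing and naive mice, with an interaction of -1.652 on the log2 scale and an adjusted p of 0.002349 from limma.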

How the results depend on the processing

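The rises of Vcan, S100a4, Spp1 and Thbs1 in tumor untreated lungs, the rise of S100a4 in naive treated lungs and its interaction kept their calls in every alternative in which the gene was fitted. Of 929 values of single genes under an alternative, 848 kept their direction and call, 46 lost a call, 11 gained one and 24 changed sign. The number of the 9 genes called in tumor treated against tumor untreated lungs was 2, and became 0 with only the compared groups, 4 with array weights and 0 to 1 without 1 library. In naive treated against naive untreated lungs it was 1, and became 2 with quantile normalization, 4 with only the compared groups, 4 with array weights and 2 with hemoglobin as a covariate. In tumor treated against naive treated lungs it was 3, and became 1 with hemoglobin and 1 to 3 without 1 library. There Postn also lost its call with no minimum, median-of-ratios scaling, plain moderation and only the compared groups, and Thbs1 with quantile normalization. For the interaction it was 1, and became 2 with array weights.

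The differences that changed sign were all of genes not called. In tumor untreated against naive untreated lungs Tnc became 0.0811 with median-of-ratios scaling, 0.0132 with quantile normalization, 0.313 with array weights and 0.158 with hemoglobin, and Lox became -0.00509 with array weights. In tumor treated against tumor untreated lungs array weights gave -0.208 for Tnc, 0.0635 for Vcan and -0.210 for Loxl2, and hemoglobin gave -0.0367 for Tnc and -0.0378 for Loxl2. Spp1 became 0.00132 with hemoglobin in naive treated against naive untreated lungs and -0.0701 with array weights in tumor treated against naive untreated lungs. Leaving out 1 library gave, in tumor untreated against naive untreated lungs, -0.00724 to 0.125 for Fn1, -0.119 to 0.183 for Tnc and -0.0466 to 0.350 for Lox. In tumor treated against tumor untreated lungs it gave -0.150 to 0.137 for Tnc, -0.251 to 0.146 for Lox and -0.109 to 0.0912 for Loxl2, and for Spp1 in naive treated against naive untreated lungs -0.0917 to 0.00719. The cause was not tested.

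Over all genes, calls in tumor treated against tumor untreated lungs were 792, and 248 with only the compared groups, 2502 with array weights and 484 at fewest without 1 library. In naive treated against naive untreated lungs they were 1021, and 1704, 2729 and 658. In tumor treated against naive treated lungs they were 1612, and 3279 with array weights, 183 with hemoglobin and 785 at fewest without 1 library. For the interaction they were 773, and 2130 with array weights and 498 to 1558 without 1 library. The main fit did not pair samples by library number, and whether the numbers mark pairs is not known. Correlations of same-numbered deviations ran from -0.267 to 0.525, with a mean of 0.103, and 12 of 24 were over 0.1. Those of other numbers ran from -0.435 to 0.318, with a mean of -0.035. Of 16 libraries 8 correlated best with their own number. Every group holds every number, so a replicate block cannot move a difference, and the interaction of S100a4 stayed at -1.65. The block changes the spread, and the 9 genes had 6 calls in tumor untreated against naive untreated lungs, as without it. Over all genes that comparison had 6619 calls with the block and 6210 without. The product has 1 library, so only its counting error is known.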
